A study of Canis lupus familiaris with 15 samples.

Results

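Needle aspirates of relapsed lymphoma (3 arrays) were compared with 2 earlier aspirates of the same dog, called Rosco in the labels, which makes 5 of the 15 arrays of the series. The samples were chosen by their titles. The first earlier aspirate was drawn after CHOP chemotherapy had failed and before the diabetes drug metformin was given. The second was drawn after metformin, when the drug-resistant tumour was in remission. The 3 relapse aspirates were drawn after metformin and after relapse, and their titles say no remission where other labels say relapse. Remission and relapse therefore share metformin, all 5 share the failed chemotherapy, and the groups differ in time as well as in disease state. Whether metformin was still being given at relapse, and from which node each aspirate came, is not given in the sources used here. A further aspirate of Rosco, labelled as a second original drug-resistant tumour, was left out on a measured value. Its summed level of the gland markers CA6, KRT19 and SPINT2 was 9.12, against −0.91 to 0.46 in the other 5 aspirates.

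Lymphoma is a cancer of lymphocytes, in dogs most often of B cells, and it commonly returns after treatment in a form that chemotherapy no longer controls. A drug efflux pump such as the one encoded by ABCB1 can carry chemotherapy out of a cell, and survivin, encoded by BIRC5, is made by dividing cells and protects them from apoptosis. An aspirate draws all the cells of a node or mass together, so that tumour cells, other lymphocytes and myeloid cells contribute RNA to 1 sample. In such bulk samples fewer cells of a type and less RNA per cell cannot be told apart.

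Each aspirate's RNA was measured on its own 1-colour Agilent array. Levels are given on the log2 scale as the signal over the 75th percentile of its array, so 0 is the level of a bright probe and a difference of 1 is 2-fold. On the 5 arrays 68.3% to 72.9% of probes were well above background, 0 spots were saturated, and the upper quartile of processed signal was lowest in remission (367) and highest in relapse 3 (765). Precision is limited by having 5 arrays of a single dog, so every p-value measures the spread between samples of that dog. Gene symbols could be attached to 5.01% of the probes, so most probes remain without a name here. Levels of different probes are not compared with each other. A level is also given where a probe was not well above background, which was so on 1 of the 2 earlier arrays for IL2RA, CD1A8, EDN3 and CDC25A, on 2 of the 3 relapse arrays for AOX2 and CA3, and on 1 of them for ICOS. Such dim genes depend on the background correction. With normexp, which adds 50 to every signal and by that construction shrinks differences of dim probes, 39 of the 90 tested genes named here had a fold over 1.5 times smaller, and the fold was under each of the 6 lower bounds given below. The MHC class II gene DLA-DRA, which is not limited to lymphocytes, lay at 6.25 to 6.62 on all 5 arrays. Lymphoid character was checked with MS4A1, the gene for the B cell protein CD20, the only measured member of 6 B cell markers. MS4A1 lay at 0.41 after failed chemotherapy, 0.38 in remission, and 2.18, 2.33 and 1.78 in relapse.

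The relapse aspirates differed from the earlier ones over a large part of the array. Of 25366 probe targets tested, 8551 passed the threshold of 0.05 on the adjusted p of limma, or 33.7%, of which 4407 (17.4%) were higher and 4144 (16.3%) lower in relapse. Among the genes with a symbol 379 of 1061 tested passed (35.7%), 200 higher and 179 lower. The 3 relapse and the 2 earlier values did not overlap for 60.3% of all targets tested, so neither a call nor a lack of overlap is rare for a single gene here. An exact rank-sum test of 3 against 2 arrays cannot give a two-sided p below 0.2, so the calls rest on the model that shares its spread over targets. The count fell to 5640 without relapse 1, to 5536 without the failed-chemotherapy aspirate and to 3770 without the remission aspirate. With the median in place of the 75th percentile the median of all targets moved from −0.08 to 0.11, and 62.5% of the called targets were higher in relapse in place of 51.5%.

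The arrays of each side were close to each other. Between the failed-chemotherapy and remission aspirates 4.52% of targets that were well above background on both arrays differed by over 2-fold. Among the relapse aspirates that share was 1.5% between 1 and 2, 5.86% between 1 and 3 and 8.21% between 2 and 3, and most of the targets that set relapse 3 apart were lower there. Between an earlier and a relapse array it was 20.3% to 30.4%. Both sides were spread over 2 slides, 1 with the failed-chemotherapy aspirate and relapse 1, the other with remission and relapse 2 and 3. All 8551 called targets had the same sign within each slide, which calling them on the same 5 arrays largely fixed.

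**Figure D1:**
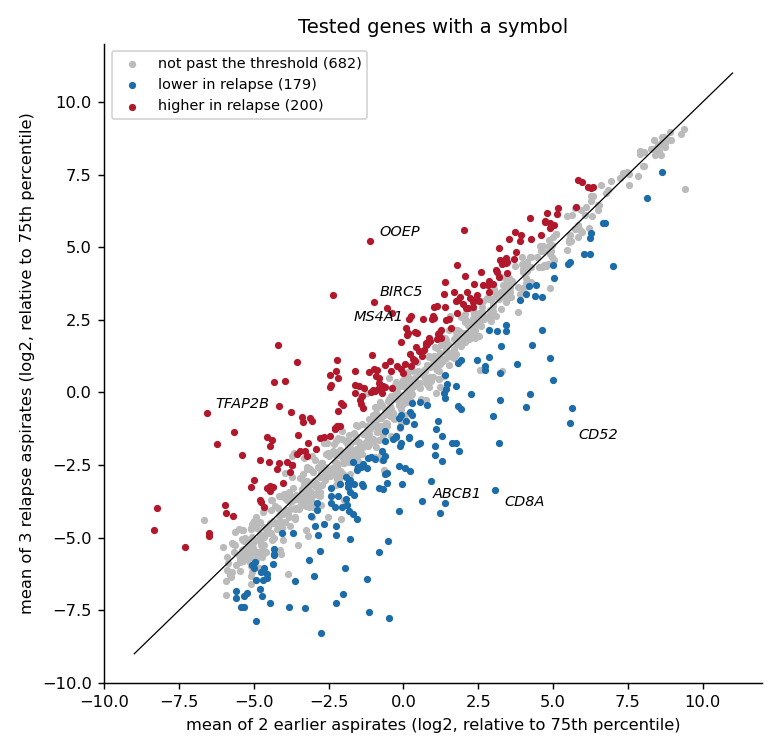
Mean level of each tested gene with a symbol in the 2 earlier aspirates (x axis) and the 3 relapse aspirates (y axis), in log2 relative to the 75th percentile of the array, with the line of equal level. Genes past the threshold lie on both sides, 200 higher (red) and 179 lower (blue) in relapse, and OOEP at the top left and CD8A and CD52 at the bottom right lie far from the line.

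The comparison came with 4 genes chosen because they differed on these arrays, and their values are a description without a test. CD8A, the CD8 co-receptor chain of cytotoxic T cells, lay at 3.21 after failed chemotherapy and 2.90 in remission, and at −3.10, −3.04 and −3.97 in relapse. Both earlier values lay above those of all other 13 arrays, where the highest was −1.53 in the sensitive biopsy of another dog. ABCB1, which encodes the drug pump P-glycoprotein, lay at 0.88 and 0.34 in the earlier aspirates and at −3.39, −3.15 and −4.73 in relapse, 20.6-fold lower on average. The other 10 arrays of the series lay between −5.12 and −1.75 for ABCB1, so the earlier aspirates were the highest of all 15 for this gene as well.

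OOEP and BIRC5 lay on the opposite side. OOEP, best known as a protein of the egg cell and early embryo, lay at −0.56 and −1.66 in the earlier aspirates and at 5.11, 5.33 and 5.20 in relapse, a mean difference of 6.33 or 80.2-fold. It was also above 4 in the post-mortem tumour, the sensitive biopsy, the MalcolmX aspirate and 3 of the 4 resistant biopsies, and at −1.15 in the first biopsy of Rosco. BIRC5 lay at 1.32 and 0.69 before and at 2.89, 2.95 and 3.00 in relapse, above each of the other 12 arrays, of which the highest was 2.86. Within the slides the difference was 5.67 and 6.93 for OOEP, 1.57 and 2.29 for BIRC5, −6.31 and −6.40 for CD8A, and −4.27 and −4.28 for ABCB1.

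**Figure D2:**
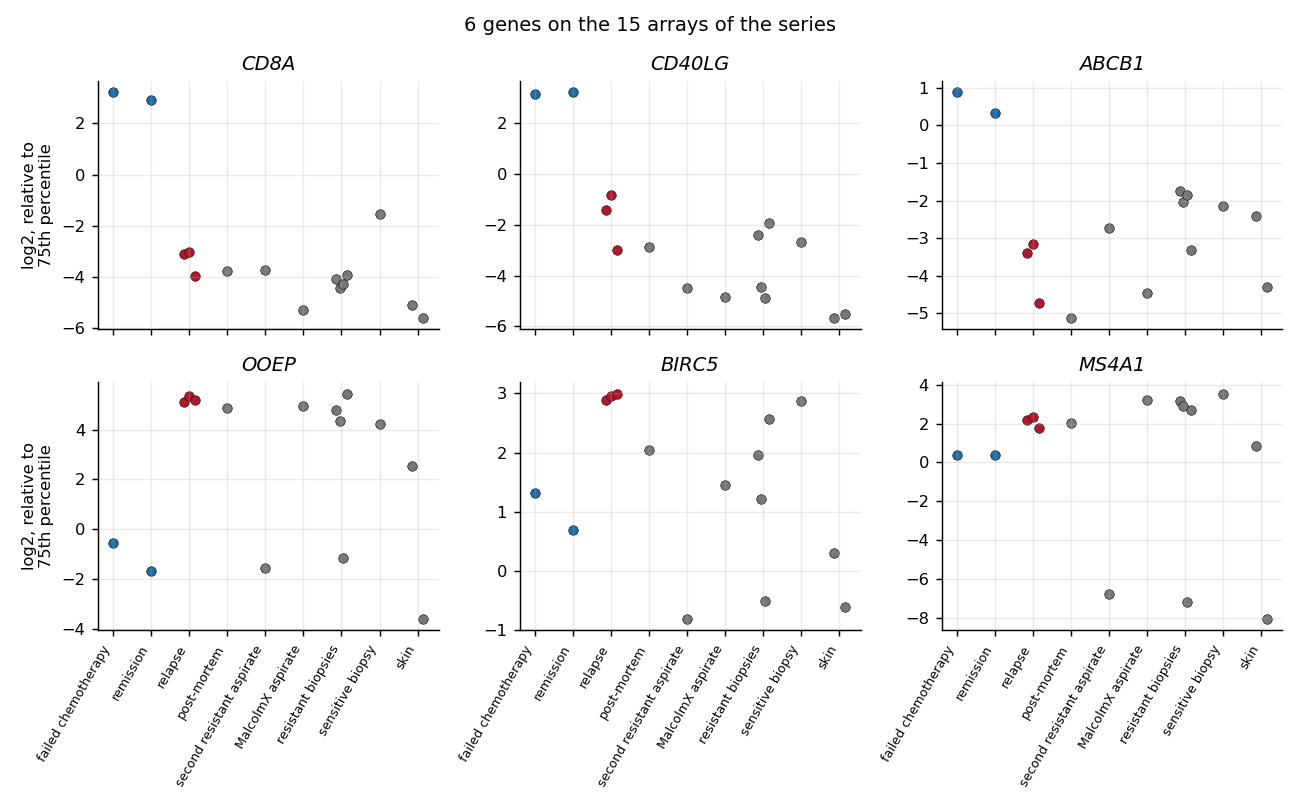
Levels of 6 genes on all 15 arrays (log2, relative to the 75th percentile of the array; each point is 1 array, the earlier aspirates in blue, relapse in red and the rest in grey). For CD8A, CD40LG and ABCB1 the 2 earlier aspirates lie above every other array, while for OOEP the relapse aspirates, 3 of the 4 resistant biopsies and the sensitive biopsy all lie above 4.

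T cell genes were far lower in relapse. Of 8 measured T and NK cell markers 5 fell and the others did not pass, with a median difference of −2.03. Over all targets tested 16.3% fell and the median was −0.08. The marker counts hold CD8A, which was given because it differed. Of the other 7 markers 4 fell, with a median of −1.79. CD28, the costimulatory receptor of T cells, lay at 1.00 and 1.41 in the earlier aspirates and at −4.52, −3.66 and −4.23 in relapse, a difference of −5.35 (SE 0.30, adjusted p = 0.000305). KLRD1, the CD94 chain of NK cell receptors, fell by 2.93 (SE 0.28) and PRF1, the pore protein perforin of killer cells, fell by 2.27 (SE 0.31). FASLG, the death ligand of cytotoxic lymphocytes, was at −1.78 in both earlier aspirates and at −3.15, −3.32 and −2.62 in relapse. Its difference of −1.25 (SE 0.25) did not pass without the failed-chemotherapy aspirate (adjusted p = 0.0694) or without the remission aspirate (adjusted p = 0.0825). With the second resistant aspirate added to the earlier side, 0 of the 8 markers passed in limma (1 had an unadjusted p under 0.05) and their median difference was −0.74, while with all 15 arrays in the fit 3 fell.

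Not every marker of the list moved. CD4, the co-receptor of helper T cells, lay at −2.98 and −2.11 in the earlier aspirates and at −3.18, −2.72 and −2.66 in relapse, where the sides overlap. CCL5, a chemokine of T and NK cells, lay at 3.38 and 1.74 against 0.32, 1.42 and 0.56, with an adjusted p of 0.0501 that was 0.0392 without relapse 2 and 0.0338 without the remission aspirate. NCR1, an NK cell receptor, was not well above background in either earlier aspirate and lay between −5.39 and −5.24 in relapse (adjusted p = 0.0564). The summed level of CD4, CD8A and CD28, the 3 measured of 5 T cell markers, holds the given gene CD8A and was 3.51 and 3.37 in the earlier aspirates and −1.88 to −1.50 in relapse. That of KLRD1 and PRF1, the 2 measured of 5 cytotoxic and NK cell markers, was 0.28 and 0.81 against −2.47 to −1.96. The part of these cells in the other differences described here was not tested.

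**Figure D3:**
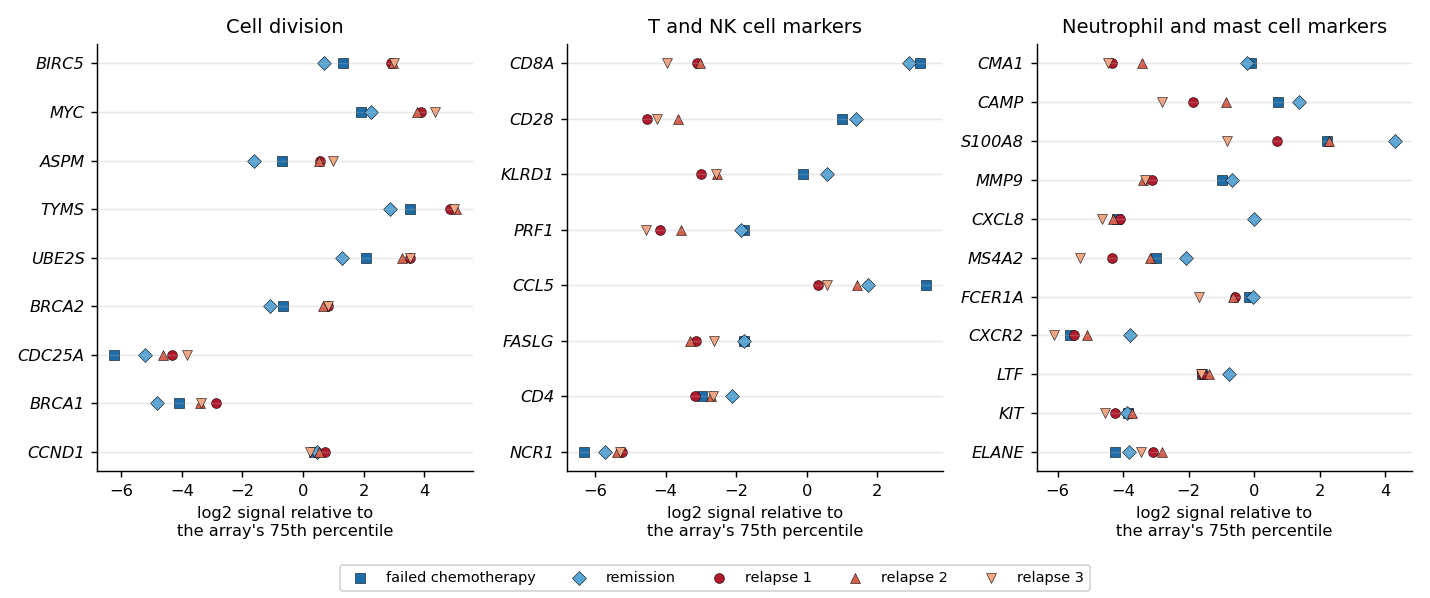
Levels of 9 of the 10 measured cell division genes, and of the T and NK cell markers and neutrophil and mast cell markers in each of the 5 aspirates (x axis, log2 relative to the 75th percentile of the array; blue symbols are the earlier aspirates, red ones relapse). The relapse symbols lie to the right of the earlier ones for 8 of these cell division genes and to the left for CD8A, CD28, KLRD1, PRF1, FASLG and CCL5, while CXCL8 and S100A8 reach their highest level in remission.

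Genes of T cell activation followed the same direction for the costimulatory receptors. Of 19 tested members of that list 8 fell and 3 rose (16.3% and 17.4% over all targets tested). The median over the 21 measured was −0.94. Without relapse 3 the number that rose was 5. CD40LG, the ligand by which helper T cells stimulate B cells, lay at 3.17 and 3.22 before and at −1.42, −0.84 and −3.00 in relapse, a difference of −4.95 (SE 0.61, adjusted p = 0.0024). ICOS, an inducible costimulator, fell by 4.69 (SE 0.41) and SLAMF1, a receptor of activated lymphocytes, fell by 5.19 (SE 0.35). IL2, the growth factor made by activated T cells, lay at −1.12 and 0.08 against −4.84, −5.14 and −5.34, and all 6 of its probes were lower in relapse. The probe used differed by −4.59. The other 5 differed by −8.02 to −7.77 and were not well above background on any relapse array, so the size depends on the probe. The 3 members that rose were IL5, a cytokine of eosinophil growth, CD274, the checkpoint ligand PD-L1, and IL2RA, the high-affinity IL-2 receptor chain. IL2RA lay at −5.82 and −6.13 before and at −4.02, −3.94 and −3.68 in relapse, 2.09 higher (SE 0.20). With normexp its difference was 0.19 (adjusted p = 0.457), and 1 member of the list rose. IL2RB, the chain that signals, fell by 2.55 (SE 0.27).

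Several further surface genes of lymphocytes were among the 15 genes with a symbol that fell most. CD52, a small glycoprotein on the surface of lymphocytes, lay at 5.67 and 5.45 in the earlier aspirates and at −0.70, −0.56 and −1.88 in relapse, 97.3-fold lower (SE of the log2 difference 0.42, adjusted p = 0.000392). IL12RB2, a receptor chain for interleukin 12 on T and NK cells, lay at 5.58 and 5.65 against −0.34, −0.08 and −1.21. CD38, an enzyme on activated lymphocytes and plasma cells, lay at 3.78 and 4.44 against −0.56, −0.12 and −0.86. For all 3 genes the earlier aspirates were the highest of the 15 arrays, and the next array was at −0.56, 0.29 and 1.00. THY1, found on canine T cells and on fibroblasts, was 5.19 in remission and at most 0.68 in relapse, a difference of −4.58 (SE 0.30), while its other probe differed by −0.94. With the second resistant aspirate added to the earlier side, CD52, IL12RB2, CD38 and THY1 did not pass in limma (adjusted p = 0.599, 0.167, 0.35 and 0.218). Their differences were then −2.77, −4.12, −2.60 and −2.92.

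B cell genes were split. Of 6 measured B cell identity genes 1 rose, 2 fell and 3 did not pass, with a median of −0.94. Among the 4 well above background on all 5 arrays 1 rose and 1 fell. Over all targets tested 17.4% rose and 16.3% fell. MS4A1 rose by 1.70 (SE 0.22, adjusted p = 0.00278), from the levels given above, and the relapse levels lay below the 2.69 to 3.18 of 3 resistant biopsies from other dogs. CD38 fell, and BCL6, the repressor of the germinal centre, lay at −4.94 and −4.54 before. BCL6 was not well above background on any relapse array, at least 2.42-fold lower, and was tested through the earlier side only. With normexp BCL6 differed by −0.52 and did not pass (adjusted p = 0.092). MME, the CD10 protein of early and germinal centre B cells, and DLA-DOB, a B cell regulator of class II loading, had overlapping values, with differences of −0.65 and −0.03.

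The CD40 and NF-kB list, which holds survival signals of B cells and Toll-like receptors, moved both ways. Of 15 tested members 5 were higher and 5 lower (17.4% and 16.3% over all targets tested), with a median of −0.13. Without the failed-chemotherapy aspirate 3 were lower. CD40, the receptor on B cells and dendritic cells, lay at 2.07 and 1.51 in the earlier aspirates and at 4.64, 4.56 and 3.95 in relapse, 2.59 higher (SE 0.29, adjusted p = 0.00187). Its ligand CD40LG fell, as described above. TLR1 rose by 2.36 (SE 0.17) and TLR7 and TLR9, sensors of nucleic acids in B cells and dendritic cells, rose too. TLR10, a receptor found mainly on B cells, was outside the list and rose further, from −3.54 and −3.61 to 1.02, 1.04 and 1.04. BCL2, which blocks apoptosis, fell by 2.50 (SE 0.29), from 4.25 and 5.04 to between 1.90 and 2.41. The 2 earlier aspirates were the highest of the 15 arrays for BCL2. The relapse levels lay within the range of the other 10 arrays, 1.76 to 3.82 with a median of 2.74.

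**Figure D4:**
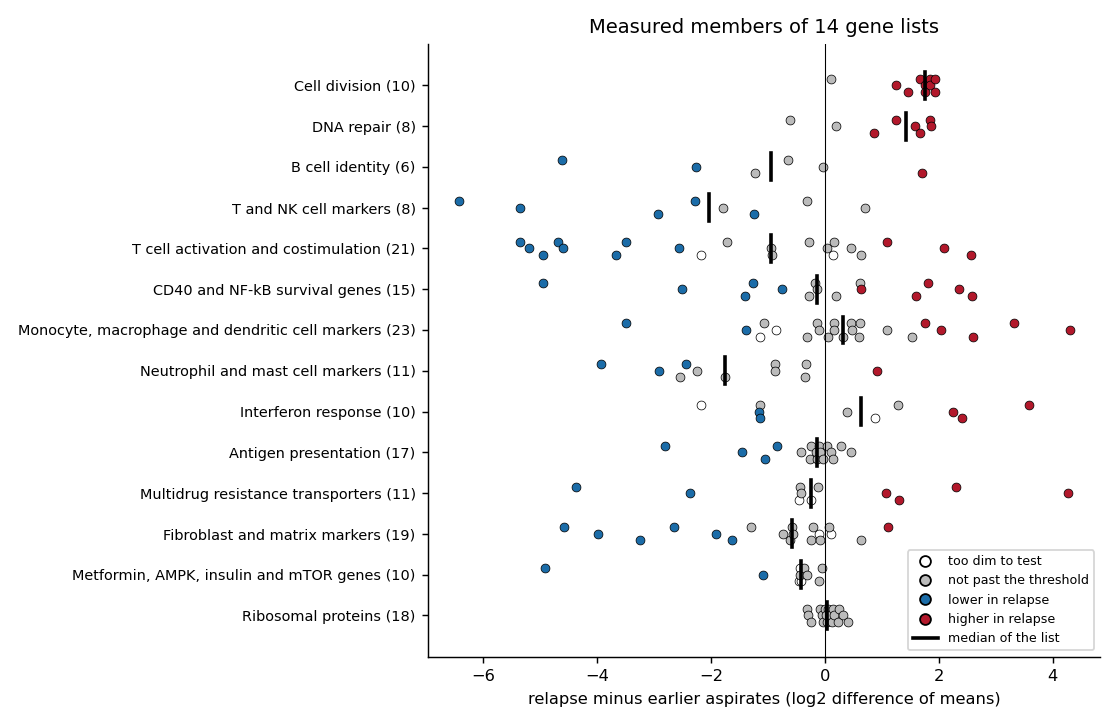
Difference between relapse and earlier aspirates (x axis, log2 difference of means; negative is lower in relapse) for each measured gene of 14 lists, with the number measured in brackets, the result of limma by colour and the list median as a bar. Cell division and DNA repair lie to the right with medians of 1.76 and 1.42, T and NK markers to the left at −2.03, and ribosomal proteins at 0.05.

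Genes of cell division were higher in relapse. Of 10 measured members 9 rose (17.4% over all targets tested), and the median difference was 1.76. Of the 9 members other than the given gene BIRC5 8 rose, with a median of 1.75. Without 1 array at a time 7 to 9 of the 10 rose, and with normexp 7 did. With the second resistant aspirate added 6 rose, and with all 15 arrays in the limma fit 0 rose, 6 having an unadjusted p under 0.05. MYC, the growth-promoting transcription factor, lay at 1.91 and 2.23 before and at 3.90, 3.77 and 4.36 in relapse, 1.94 higher (SE 0.24, adjusted p = 0.00256). TYMS, which makes thymidylate for DNA, rose by 1.76 (SE 0.24), and ASPM, a protein of the mitotic spindle, rose by 1.85 (SE 0.32). CCND1, cyclin D1 of early G1, was the member that did not pass, with 0.35 and 0.45 against 0.73, 0.53 and 0.24. The remission aspirate lay below the failed-chemotherapy aspirate for 7 of the 10 genes, with a median difference of −0.63 between these single arrays.

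The study's title refers to the anaphase promoting complex, a ubiquitin ligase that takes cells out of mitosis. Of its subunits, activators, inhibitors and substrates 3 carried a symbol. One is BIRC5, which was given because it differed, and the other 2 rose. UBE2S, the enzyme that lengthens ubiquitin chains for the complex, lay at 2.07 and 1.30 before and at 3.54, 3.27 and 3.51 in relapse, 1.75 higher (SE 0.27, adjusted p = 0.00509). CDC25A, a phosphatase that drives entry into S phase and is a substrate, rose from −6.22 and −5.21 to −4.32, −4.62 and −3.82. Its adjusted p of 0.0284 became 0.0689 without relapse 1, 0.0593 without relapse 3 and 0.141 without the failed-chemotherapy aspirate. It was also lost without a filter (0.0651) and from the series table (0.16), and with normexp the difference was 0.072 (adjusted p = 0.8).

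DNA repair genes, of which 3 are also in the cell division list, rose in 6 of 8 cases with a median of 1.42, and in 4 without relapse 1 or without the remission aspirate. With the second resistant aspirate added 3 rose, and with all 15 arrays 1 did. In the main fit 17.4% of all targets tested rose. XRCC1, a scaffold of single-strand break repair, lay at 0.73 and 0.58 against 2.56, 2.66 and 2.35, and APEX1, an enzyme of base excision repair, rose by 1.59 (SE 0.18). BRCA2, which acts in repair by homologous recombination, rose by 1.67 (SE 0.20). BRCA1 rose by 1.25 (SE 0.29) with an adjusted p of 0.0213 that became 0.066 without relapse 1, 0.133 without the remission aspirate and 0.372 with normexp, where the difference was 0.25.

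Genes of drug resistance went in both directions. Of 9 tested members 4 rose and 2 fell (17.4% and 16.3% over all targets tested), with a median of −0.24 over the 11 measured. Without the given gene ABCB1 4 of 8 rose and 1 fell. Besides ABCB1, the efflux pump ABCC5 fell, from −0.28 and −0.04 to −2.32, −2.46 and −2.81, a difference of −2.37 (SE 0.22, adjusted p = 0.000991). ABCC1, the pump MRP1, lay at −0.96 and −0.65 before and at 0.36, 0.29 and 0.83 in relapse, 1.30 higher (SE 0.24, adjusted p = 0.00909, and 0.0654 without the failed-chemotherapy aspirate). MGMT, which removes alkyl damage from DNA, rose by 1.07 (SE 0.19, adjusted p = 0.00819, and 0.0684 without the remission aspirate). The cytochromes CYP3A26 and CYP3A12, which break down many drugs in the liver, were higher in relapse. CYP3A26 was not well above background in either earlier aspirate and lay at −4.08, −4.39 and −3.44 in relapse, at least 4.29-fold higher. With normexp its difference was 0.33 and did not pass (adjusted p = 0.198). CYP3A12 lay at −1.14 and −0.94 against 1.25, 0.91 and 1.65. These cytochromes are near copies, and how far their probes tell them apart was not tested. MVP of the vault particle, the glutathione transferase GSTP1 and the pump ABCC4 had overlapping values with differences of −0.44, −0.42 and −0.11, and MVP passed without relapse 3 (adjusted p = 0.0455). ABCB11 and ABCC2 were too dim to test.

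Macrophage and dendritic cell markers rose in 5 of 21 tested cases and fell in 2, with a median of 0.31 over 23 measured. The share that passed was near the 33.7% of all targets tested. With median scaling 9 rose, and with quantile scaling 7. CD1A8, a molecule that presents lipids on dendritic cells, lay at −6.34 and −5.00 before and at −1.78, −1.38 and −0.94 in relapse, and its relative CD1A6 rose by 2.61 (SE 0.36). CD80, a costimulatory ligand on antigen-presenting cells, fell by 3.50 (SE 0.21). The summed level of CYBB and CD163, the 2 measured of 5 macrophage markers, was 1.43 and 1.33 before and 3.24 to 3.65 in relapse, and its part in other results was not tested either.

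Neutrophil and mast cell genes gave 3 falls and 1 rise among 11, with a median of −1.75. Of all targets tested 33.7% passed, a share near that of this list. The single rise, of the elastase gene ELANE, was lost without any of relapse 1, relapse 2 or either earlier aspirate, and 5 fell without relapse 2. With normexp 6 fell and 0 rose in limma, with 7 members at an unadjusted p under 0.05 in either direction. CMA1, the protease chymase of mast cells, lay at −0.09 and −0.20 before and at −4.34, −3.43 and −4.45 in relapse, a difference of −3.93 (SE 0.34). The 3 mast cell markers KIT, CMA1 and MS4A2 together lay at 0.18 and 0.24 before and at −3.14 to −1.85 in relapse. MMP9, a gelatinase of neutrophils and macrophages, fell by 2.44 (SE 0.20). S100A8, an abundant protein of neutrophils, lay at 2.24 after failed chemotherapy and 4.32 in remission and at 0.70, 2.30 and −0.82 in relapse. It did not pass (adjusted p = 0.0996), but did without relapse 2 (adjusted p = 0.0332) and with normexp background correction (adjusted p = 0.019).

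Of the genes that interferon induces, 3 of 8 tested rose and 2 fell (17.4% and 16.3% over all targets tested). Their median was 0.63 over 10 measured. MX1, a GTPase that blocks viruses, lay at 1.59 and 2.46 before and at 5.49, 5.59 and 5.74 in relapse, 12-fold higher (SE of the log2 difference 0.29, adjusted p = 0.00069). OAS2, a sensor of double-stranded RNA, rose by 2.42 (SE 0.28) and EIF2AK2, the kinase PKR, rose by 2.25 (SE 0.23). OAS3, of the same family as OAS2, and TRIM34 were the members that fell. Interferon gamma itself, IFNG, was too dim to test.

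Among antigen presentation genes 4 of 17 fell and the others did not pass, with a median of −0.14. Over all targets tested 33.7% passed and 16.3% fell. The 4 were the class I genes DLA-79, DLA88 and DLA-64 and the peptide transporter TAP1, and without the remission aspirate 2 passed. DLA-79, a class I gene of the dog, lay at 1.40 and 1.20 before and at −1.50, −1.62 and −1.39 in relapse, a difference of −2.80 (SE 0.18, adjusted p = 0.000405). DLA88, the main class I gene, lay at 8.05 and 8.23 against 6.74, 6.64 and 6.66, a difference of −1.46 (SE 0.17). Class I genes are near copies of each other, and their probes may share signal. The class II genes DLA-DRA, DLA-DQA1, DLA-DQB1, DLA-DMA and DLA-DMB did not pass, with differences between −0.41 and 0.03.

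In the chemokine list 5 of 21 tested fell and 1 rose, with a median of −0.36 over 29 measured. The rise, of CCL20, was lost without relapse 1, relapse 2 or the remission aspirate. CCL4, a chemokine made by activated T cells and macrophages, fell by 2.15 (SE 0.38). In the interleukin list 5 of 21 tested fell and 2 rose, with a median of −0.48 over 27. With normexp 6 fell and 0 rose in limma, 9 having an unadjusted p under 0.05 in either direction. The largest falls were those of IL12RB2, IL2 and IL2RB. Neither the chemokine nor the interleukin list passed in a larger share than all targets tested (33.7%).

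Apoptosis genes moved both ways, with 5 of 19 higher, BIRC5 among them, and 5 lower and a median of 0.09. These counts fell to 1 higher and 3 lower without the remission aspirate, and to 3 higher and 2 lower without the failed-chemotherapy aspirate. CASP12, an inflammatory caspase, lay at 2.94 and 3.05 before and at −0.71, −0.54 and −1.23 in relapse, a difference of −3.82 (SE 0.25). Among matrix genes 6 of 17 tested fell and 1 rose, and the rise of PDGFRB was lost without either earlier aspirate. Beside the counts of both lists stand 17.4% higher and 16.3% lower over all targets tested. DCN, the collagen-binding decorin, lay at 0.89 and 0.98 against −3.15, −1.89 and −4.12, and BMP4, a growth factor of stroma, fell by 3.25 (SE 0.27). VIM, the intermediate filament of fibroblasts and leukocytes, fell by 2.64 (SE 0.23). The collagen genes COL1A1 and COL1A2 differed by −0.55 and −0.58 and did not pass.

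Among genes of metabolism, PCK1, the enzyme that commits carbon to glucose synthesis, lay at −1.12 and −2.96 before. This probe was not well above background in relapse and was tested through the earlier side only. Another probe of PCK1, well above background on both earlier and 2 relapse arrays, differed by −0.75. PCK1 was 1 of 2 genes that fell among 7 tested members of the metformin, AMPK and insulin list, together with the growth factor receptor IGF2R, and PCK1 alone fell without the remission aspirate. That list passed in no larger share than all targets tested (33.7%), of which 16.3% fell. MT1E, a metal-binding metallothionein, lay at 4.26 and 4.21 against 0.29, 0.26 and −0.68. PYGL, which releases glucose from glycogen, rose from −0.70 and −0.40 to 2.97, 2.77 and 2.98. GPX1, a peroxidase that uses glutathione, fell by 1.48 (SE 0.18). Of 18 ribosomal protein genes 0 passed in limma, with 0 at an unadjusted p under 0.05 and differences from −0.31 to 0.41, while 1 rose without relapse 3.

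**Figure D5:**
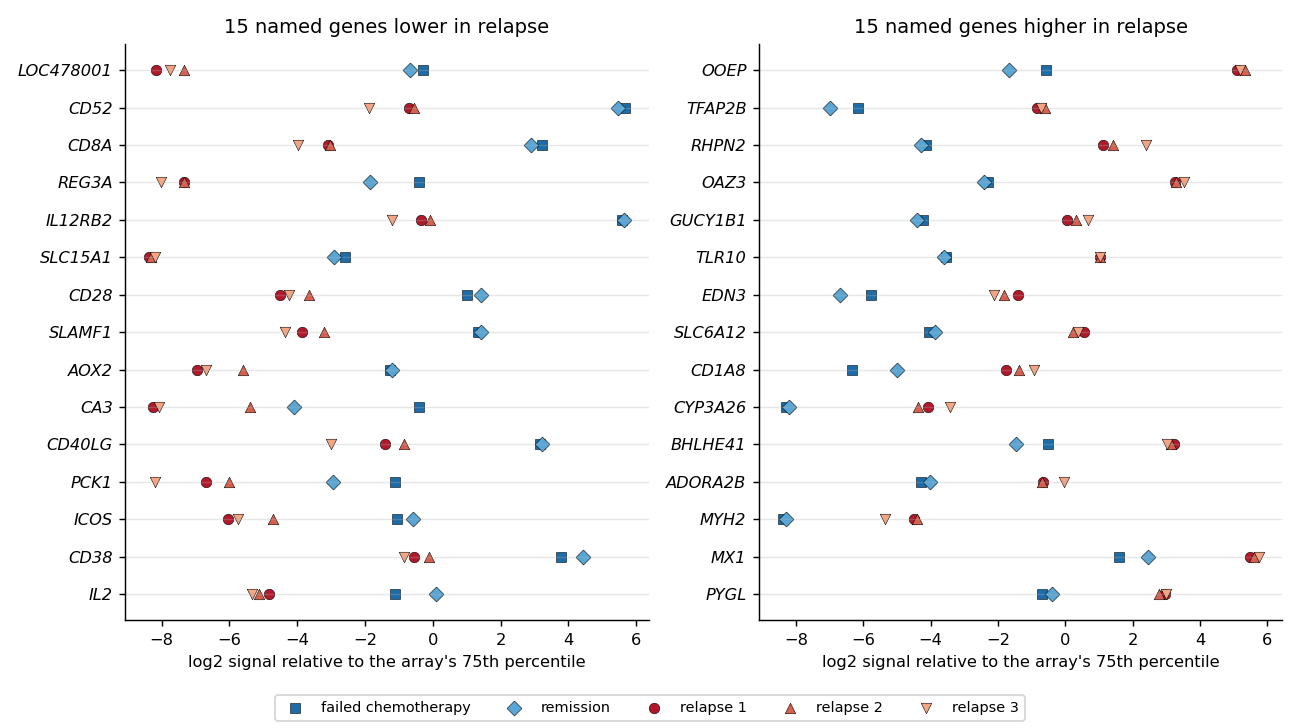
Levels in each of the 5 aspirates (x axis, log2 relative to the 75th percentile of the array) of the 15 genes with a symbol that were furthest below (left) and above (right) the earlier aspirates in relapse. Within each row the 2 blue symbols and the 3 red ones do not overlap, which the choice of these genes fixed.

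The genes with the largest differences also held some best known from other tissues. TFAP2B, a transcription factor of neural crest and kidney, was not well above background in the earlier aspirates. It lay at −0.83, −0.62 and −0.71 in relapse, at least 40.9-fold higher, and was tested through the relapse side only. On 9 of the other 10 arrays it was well above background, and the median of those 10 was −1.01. OAZ3, an antizyme of the testis that controls polyamine synthesis, lay at −2.31 and −2.41 before and at 3.25, 3.27 and 3.51 in relapse, above the other 10 arrays, whose highest was 2.98. RHPN2 lay at −4.13 and −4.29 against 1.12, 1.42 and 2.38. GUCY1B1, a subunit of the nitric oxide receptor, rose by 4.68 (SE 0.24) and SLC6A12, a transporter of betaine and GABA, rose by 4.35 (SE 0.19).

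Others of this kind were the peptide hormone EDN3, which rose by 4.45 (SE 0.35), the clock repressor BHLHE41, which rose by 4.13 (SE 0.30), and the adenosine receptor ADORA2B, which rose by 3.70 (SE 0.26). For RHPN2, GUCY1B1, BHLHE41 and ADORA2B both earlier aspirates lay below all other 13 arrays. MYH2, a myosin of fast skeletal muscle, was not well above background in the earlier aspirates and lay at −4.49, −4.42 and −5.35 in relapse, at least 2.50-fold higher. With normexp its difference was 0.15 and did not pass (adjusted p = 0.645), and its other 4 probes were not well above background on any of the 5 arrays.

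On the lower side, REG3A, an antimicrobial lectin of the gut and pancreas, lay at −0.41 and −1.87 before, and this probe was not well above background in relapse. The other REG3A probe, well above background on 1 relapse array, differed by −4.54. SLC15A1, the intestinal peptide transporter, lay at −2.59 and −2.92 and was at least 9.57-fold lower. LOC478001, a gene with a locus name only, lay at −0.28 and −0.66 and was at least 46.5-fold lower. AOX2, of the aldehyde oxidase family, fell by 5.18 (SE 0.41). CA3, a carbonic anhydrase of muscle, lay at −0.42 after failed chemotherapy, −4.09 in remission and −8.25, −5.38 and −8.09 in relapse. Its adjusted p of 0.029 became 0.0741 without relapse 1, 0.0793 without relapse 3, 0.139 without the failed-chemotherapy aspirate and 0.0561 with the mean of its probes.

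The relapse aspirates were also set against each earlier aspirate alone, in comparisons that share the 3 relapse arrays. Against the failed-chemotherapy aspirate 3769 of 26061 targets passed (14.5%), 1804 higher and 1965 lower in relapse. That count was 1965 without relapse 1, 2265 without relapse 2 and 7371 without relapse 3. Against the remission aspirate 5534 of 26403 passed (21%), 2657 higher and 2877 lower, and the count was 2489 without relapse 1 and 9135 without relapse 3. The difference for CD40LG was −4.92 against failed chemotherapy and −4.98 against remission, for MX1 it was 4.02 and 3.15, and for MYC 2.10 and 1.78. CXCL8, the neutrophil chemokine, did not pass against both earlier aspirates together (adjusted p = 0.176). It lay at −4.20 after failed chemotherapy, −0.01 in remission and between −4.66 and −4.10 in relapse, so that remission alone stood apart.

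The called genes with a symbol were also placed among all 15 arrays. Both earlier aspirates lay above all other 13 arrays for 69 of the 179 genes that were lower in relapse (38.5%). They did so for 40.1% of all targets called lower and 9.29% of all targets tested. Both earlier ones lay below all other arrays for 26 of the 200 genes that were higher (13%). The like shares were 19.4% of all targets called higher and 4.02% of all targets tested. The 3 relapse aspirates lay above all other 12 arrays for 20 of the 200 genes (10%) and below them for 8 of the 179 (4.47%). Among all targets called higher or lower these shares were 9.85% and 4.93%, and among all targets tested 2.31% and 1.01%. All shares of called genes describe genes chosen on the same arrays, which by itself raises them over all targets tested, and were not tested. When each other array was placed on the nearer side of the midpoint between the groups, the Dog Y biopsy lay on the relapse side for 165 of the 200 higher and 161 of the 179 lower genes, the sensitive biopsy of another dog for 162 and 139, and the post-mortem tumour of Rosco for 153 and 148. The first biopsy of Rosco lay there for 72 and 102, and the left-out aspirate of Rosco for 65 and 94.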

How the data were processed

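RNA of 5 aspirates from 1 dog was labelled with Cy3 and hybridised to 1-colour canine Agilent arrays. The authors' processed intensity, made with Agilent Feature Extraction 11.0.1.1 per the file headers, is background-subtracted within an array and not scaled across arrays. Values of the deposited series table equalled the median spot intensity less the median of its local background, within 0.01, in 678300 of 678300 cells. Other deposited columns, per the file headers, are yes or no flags for each spot.

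Here the log2 processed intensity minus the 75th percentile of the array was used, for 43603 probes that are not controls, after leaving out 2 to 20 outlying spots per array. Spots of a probe were averaged. RefSeq accessions gave 2186 probes 1 of 1357 symbols, and the probe with the highest mean stood for each of 36604 targets. To be tested, a target had to be well above background on all arrays of the relapse or of the earlier side. A gene dim on 1 side was thus tested through the side where it was bright. The test was limma 3.58.1 (R 4.3.3), two-sided, at 0.05 after Benjamini-Hochberg adjustment across tested targets, and errors are the model's standard errors (SE). With a single earlier aspirate the spread comes from the relapse arrays. An "at least" fold marks a gene that no array of the dimmer side measured above background, set there at its own signal or the lowest signal well above background, whichever was higher. On simulated data with independent noise, 67, 67 and 66 targets were changed by 1, 2 and 4 on the log2 scale. Of these 2.99%, 49.3% and 92.4% were recovered, with 3 false calls among 25366 targets. Far fewer targets were changed there than passed on the real arrays (33.7%), so these rates do not describe the calls given here.

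The samples, the 4 leading genes and the 30 gene lists were chosen with earlier results of these data known. Named genes were the 15 higher and 15 lower with the largest difference among called genes whose sides do not overlap, the 4 leading genes, up to 4 members of each list by size, and all measured members of the B cell, T and NK cell, cell division and drug resistance lists. A few that the rule took appear only in counts. DLA-DRA, the other class II genes, COL1A1, COL1A2, IL5, CD274, ELANE, KIT, MS4A2, CCL20, PDGFRB, TLR7, TLR9, OAS3, TRIM34, IFNG, KRT19, CYBB and CD163 fall outside it; apart from the cell markers KRT19, KIT, MS4A2, CYBB, CD163, COL1A1 and COL1A2 they were chosen after their values were seen. Scaling, background correction, input, filter, probe choice, slide, variance prior, arrays in the fit and single arrays left out were varied. The list counts under these alternatives, and those without the leading genes, were added after seeing the data. The reference assembly differs from that of the array, so no positions are given. Some list members are counted but not reported by name here.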

Additional observations from a re-analysis of the deposited data

How the results depend on the processing

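The number of targets called between relapse and earlier aspirates (8551) stayed between 7341 and 9228 with median or quantile scaling, normexp correction, the series table, other filters, the mean of probes, slide as a fixed or random block, another variance prior and a 3-level fit. It was 2490 within the slide of remission, relapse 2 and relapse 3, 1122 with all 15 arrays in the fit and 2681 with the left-out aspirate added to the earlier side, and all calls in the latter 2 fits were among the 8551. Of called genes named here that these 2 fits tested, 32 of 79 kept their call with all 15 arrays and 31 of 74 with the left-out aspirate added. In the latter limma fit 0 genes fell among T cell activation (8 without that aspirate), chemokines (5), interleukins (5), CD40 and NF-kB (5), apoptosis (5), antigen presentation (4), interferon (2) and macrophage genes (2), and 3, 3, 4, 4, 4, 0, 4 and 5 members had an unadjusted p under 0.05 in either direction. Leaving out 1 array at a time gave 3770 to 9754. Against failed chemotherapy it was 2265 without a filter, 196 with all 15 arrays and 1965 to 7371 without 1 relapse array. Against remission it was 271 with all 15 arrays and 2489 to 9135 without 1 relapse array. The 2-fold count between the earlier aspirates (1121) became 259 with normexp and 1739 from the series table. The cause of these changes was not tested.

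Of genes named above, those below turned sign somewhere. With the left-out aspirate added FASLG was 0.37, TAP1 0.42, CCND1 and SPINT2 −0.37 each and DLA-DOB 1.47. DLA-DOB was 0.16 and ABCC4 0.076 with median scaling, and ABCC4 was 0.068 with quantile scaling and 0.0030 from the series table. NCR1 was −0.17 with normexp and CCND1 −0.062 within the remission slide, and within the other slide, 1 array against 1, CXCL8 was 0.092 and ABCC4 0.045. Leaving out 1 array at a time gave −0.520 to 0.291 for ABCC4, −0.012 to 0.231 for CCND1, −0.740 to 0.131 for CD4 and −0.165 to 0.088 for DLA-DOB.

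Across every alternative with a test, 9 of the 79 called genes named here kept direction and call, and 70 lost the call at least once. Of these 79 genes 7 lost their call with normexp, namely CA6 (−0.52) and the 6 given with their values above, while CCL5 passed (−1.72). Differences were −1.70 for PCK1, −2.24 for REG3A, −1.46 for SLC15A1, −2.70 for LOC478001 and 2.27 for TFAP2B with normexp. With the mean of probes they were 0.92 for MYH2, −2.85 for PCK1, −2.76 for THY1 and −1.30 for MMP9.

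No paired analysis was possible because 2 earlier aspirates and 3 relapse aspirates share no replicate number that marks a pair. Scan day as a block was not run, since all 5 arrays were scanned on 1 day. Among probes of named genes 5 of 48 genes with another measured probe had one of opposite sign. Genes dim in both groups and the many probes without a symbol limit what the lists can show.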

Other observations

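Remission and failed chemotherapy are single arrays, so their values carry no test. Fat cell and lipid genes were split, with 7 of 13 measured genes lower in remission and 6 higher. Over 2-fold, 6 were lower and 1 was higher. Their median difference was −0.94, against 0.06 over all genes with a symbol. These counts take in dim genes, and 5 of the 13 were too dim to test between relapse and earlier aspirates. Among 24807 targets well above background on both arrays, 366 were over 2-fold lower in remission. That set leaves out dim genes, so its share is not like that of the list. ADIPOQ, the fat cell hormone adiponectin, was −0.44 after failed chemotherapy, −2.24 in remission and −3.24, −2.76 and −3.66 in relapse. FFAR4, a fatty acid receptor, was −4.65 after failed chemotherapy and not well above background in remission or relapse. Neutrophil and mast cell genes lay higher in remission for 9 of 11, with a median of 0.63, against 764 of 1356 over all genes with a symbol.

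Single genes of other lists also passed. SELP, the P-selectin of platelets and vessel walls, lay at −2.52 and −1.88 in the earlier aspirates and at 0.17, 0.38 and 0.94 in relapse, 2.69 higher (SE 0.31, adjusted p = 0.00199 in limma). Its list of vessel and smooth muscle genes had 1 call among 17 tested. HSPB1, a small heat shock protein, fell by 3.71 (SE 0.38), from 4.35 and 5.46 to 1.37, 1.44 and 0.77, and in the chaperone list 1 of 18 rose and 1 fell.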
